A study of Mus musculus with 6 samples.

Results

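Genes that mark macrophages or serve phagocytosis were described in bulk RNA-seq of mouse dorsal root ganglion (DRG) and tumor tissue. They are a set of 38 symbols, named for their role and not picked by a threshold, which covers pan-macrophage identity genes, resident genes, lipid-handling genes, Fc receptors and inflammatory or phagocyte effector genes. Of these symbols 37 were found among the 24062 genes of the files, where *Adgre1* appears under its older symbol *Emr1*. After a filter on low counts 35 of them were tested, and *Vsig4* and *Nos2* fell below it.

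The libraries came from 6 mice of C57BL/6-I129 background, 3 *Nf1fl/fl;DhhCre* mice and 3 labelled double knockout, in which *Runx1* and *Runx3* are floxed as well (genotype label Rx1flfl;Rx3fl/fl;DhhCre). All 6 mice carry DhhCre, a Cre recombinase driven by the *Dhh* promoter in the Schwann cell (SC) lineage, so that macrophages are not the cells in which it is meant to act. The double-knockout genotype label leaves out Nf1fl/fl, which the protocol text includes, and the tissue label is DRG for one genotype and neurofibroma tumor for the other, so that a difference of tissue, if there was one, and the genotype cannot be told apart. The paper's results name tumors for *Nf1fl/fl;DhhCre* and DRG/tumors for the double knockout, while its methods name DRG/tumors for both. No age was used here. For some libraries title and file header name different mice of that genotype. The descriptions give 5 libraries 1 sequencing run and the other, double-knockout replicate 3 by its title but replicate 2 by its file header, another run. That library cannot be compared within a run, and values without either replicate are given below.

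*Runx1* stood at 131, 141 and 172 CPM (read counts scaled for library size with TMM factors) in *Nf1fl/fl;DhhCre* and at 84.0, 78.9 and 185 CPM in the double knockout, where replicate 3 was not reduced. *Runx3* was at 19.9, 15.1 and 29.9 CPM against 13.5, 10.3 and 12.1 CPM. Because of *Runx1*, counts of members are also given without that library. The libraries held 12439296 to 16682194 counts. DRG sensory neuron markers, the defining genes of the ganglion, were present in all 6 libraries and higher in the double knockout (summed level 6860 to 15400 CPM against 1350 to 2820 CPM, with 19 of 20 called higher, 2 without *Nf1fl/fl;DhhCre* replicate 1 and 8 without replicate 3). Fibroblast markers summed to 3500 to 5790 CPM against 9440 to 10100 CPM, with 5 of 10 called lower (1 without *Nf1fl/fl;DhhCre* replicate 1 and 2 without double-knockout replicate 2). In a bulk library, fewer macrophages and less RNA per macrophage cannot be told apart, and the same holds for a larger amount of other RNA, such as that of neurons. Of 12 SC markers 3 were called higher (1 without *Nf1fl/fl;DhhCre* replicate 1), of 13 myelinating SC markers 9, and of 10 endothelial markers 0 (3 higher at an unadjusted p under 0.05; 0 in edgeR and 1 in DESeq2). The part of these other cells in the results below was not tested.

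Macrophages arise from yolk sac, fetal liver or bone marrow precursors and depend on the transcription factor PU.1, encoded by *Spi1*, which works with IRF8 and other factors at their enhancers. They are found in peripheral nerve and ganglia and in neurofibromas. Tissue-resident macrophages carry scavenger and efferocytosis receptors such as CD163, LYVE1 and MERTK. Macrophages that have taken up lipid or myelin debris use TREM2 with its adaptor TYROBP, and inflammatory phagocytes make reactive oxygen through the NADPH oxidase.

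The comparison asked how far the members of these roles differed between the genotypes. A gene was called when its adjusted p was below 0.05 and its change above 2-fold in limma-voom, with Benjamini-Hochberg adjustment over all 15652 genes tested. Of the 35 tested members, 19 were called lower in the libraries labelled double knockout, against 5.36% of all genes tested. No member was called higher (8.03% of all genes tested); edgeR and DESeq2 also called none higher, and none was higher at an unadjusted p under 0.05. In 26 members every double-knockout library lay below every *Nf1fl/fl;DhhCre* library, which held for 20.5% of all genes tested. In the other 9 the genotypes overlapped, and no member lay wholly higher, as 21.8% of all genes did. The median log2 fold change of the tested members was -2.14, beside 0.02 over all genes tested. Together the members took 0.211 to 0.437% of the counts in *Nf1fl/fl;DhhCre* and 0.0462 to 0.0996% in the double knockout.

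The roles had different medians. The median log2 fold change was -2.86 for the 4 Fc receptor genes, -2.45 for the 13 identity genes, -2.23 for the 6 inflammatory genes, -1.37 for the 4 lipid-handling genes and -0.66 for the 8 resident genes. Called lower were 4 of 4 Fc receptor genes, 10 of 13 identity genes, 2 of 6 inflammatory genes, 2 of 4 lipid-handling genes and 1 of 8 resident genes. In the same order edgeR called 4, 12, 4, 2 and 2, and DESeq2 4, 13, 6, 2 and 2, so that the count of inflammatory genes depends on the test. The difference between roles was not tested. Without *Nf1fl/fl;DhhCre* replicate 1, 1 identity, 1 Fc receptor, 1 inflammatory and 1 lipid-handling gene were called and 0 resident genes, while without *Nf1fl/fl;DhhCre* replicate 2 the counts were 12, 4, 4, 3 and 2. Without double-knockout replicate 2, 5 identity genes were called.

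**Figure D1:**
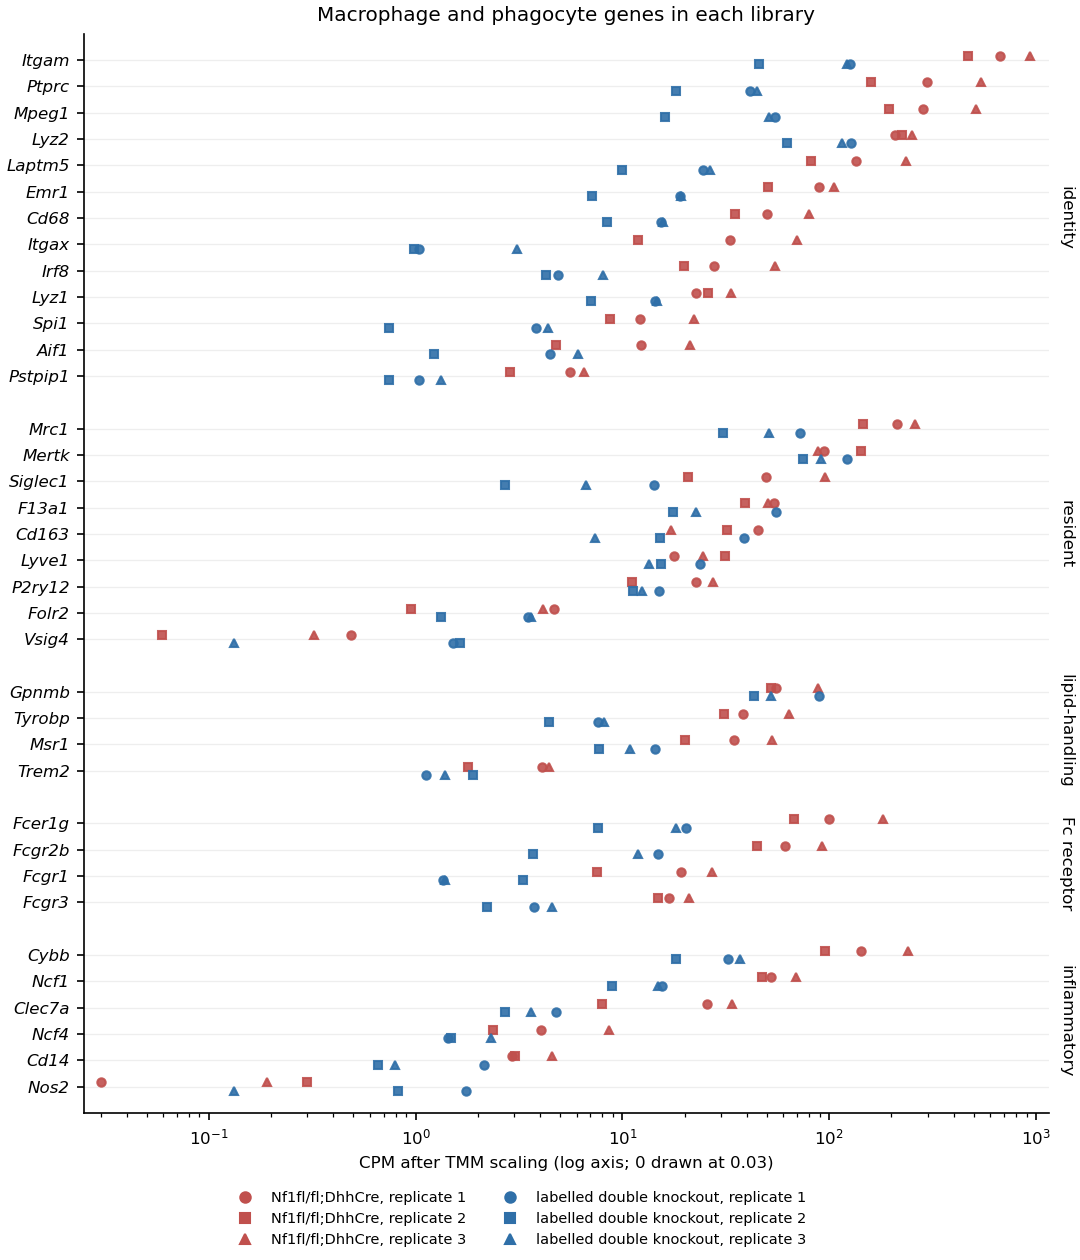
Level of the members in each of the 6 libraries, in CPM on a log axis, without 1 member that is not reported, grouped by role and sorted by the *Nf1fl/fl;DhhCre* mean. Red points are *Nf1fl/fl;DhhCre* and blue points the libraries labelled double knockout, with a symbol for each replicate. The groups stand apart in 26 of the 35 tested members, and overlap in most resident genes.

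The identity genes *Ptprc*, *Emr1* and *Itgam*, whose products lie on the leukocyte surface, were called lower. *Ptprc*, which encodes the pan-leukocyte phosphatase CD45 (chr1:138062861-138175708 on GRCm38), was at 298, 159 and 542 CPM in *Nf1fl/fl;DhhCre* replicates 1 to 3 and at 41.6, 18.2 and 44.6 CPM in replicates 1 to 3 labelled double knockout. The genotypes did not overlap, and the decrease was -3.17 on the log2 scale (SE 0.54, adjusted p = 0.0132, limma-voom). *Emr1*, which encodes F4/80, the classical mouse macrophage antigen (chr17:57358691-57483527), was at 89.4, 50.8 and 106 CPM against 19.0, 7.15 and 19.3 CPM. It fell by 2.47 on the log2 scale (SE 0.45, adjusted p = 0.0147, limma-voom). *Itgam*, the integrin alpha M chain CD11b of the complement receptor (chr7:128062640-128118491), was at 670, 468 and 936 CPM against 126, 46.0 and 122 CPM. Its log2 change of -2.89 had an SE of 0.41 (adjusted p = 0.0100, limma-voom), and it was among the members called whichever library was left out.

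Its neighbour *Itgax*, the integrin alpha X chain CD11c of dendritic cells and some macrophages (chr7:128129547-128150657), had the largest decrease of the tested members and was not called. It was at 33.2, 11.9 and 69.8 CPM in *Nf1fl/fl;DhhCre* and at 1.04, 0.987 and 3.10 CPM in the double knockout. Every double-knockout library was thus lower, but the *Nf1fl/fl;DhhCre* libraries lay far apart, and the log2 fold change of -4.24 had an SE of 1.35 (adjusted p = 0.0672, limma-voom). Without *Nf1fl/fl;DhhCre* replicate 2 it was called (-4.87, adjusted p = 0.0119, limma-voom), and with all libraries edgeR gave an adjusted p of 0.0141.

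Of the lineage transcription factors, *Irf8* was called lower and *Spi1* lay close to the threshold. *Irf8*, which encodes a factor for monocyte and dendritic cell development (chr8:120736358-120756694), was at 27.8, 19.9 and 54.6 CPM against 4.86, 4.28 and 8.05 CPM. The estimate for *Irf8* was -2.45 (SE 0.53, adjusted p = 0.0229, limma-voom). *Spi1* (chr2:91082390-91115756) was at 12.2, 8.70 and 22.2 CPM against 3.83, 0.740 and 4.36 CPM. Although its genotypes did not overlap, its log2 fold change of -2.42 (SE 0.71) missed it in limma-voom (adjusted p = 0.0533) and passed in edgeR (adjusted p = 0.0468), in DESeq2 (adjusted p = 0.00155), with library size only (adjusted p = 0.0486, limma-voom) and with sample quality weights (adjusted p = 0.0328, limma-voom). Over the left-out libraries its estimate ranged from -2.91 to -1.68, and it was called without *Nf1fl/fl;DhhCre* replicate 2 (adjusted p = 0.0363, limma-voom). The *Irf8* call rests on single libraries: it was lost without any of *Nf1fl/fl;DhhCre* replicate 1 and double-knockout replicates 1, 2 and 3 (log2 fold change -2.75 to -2.27, adjusted p = 0.0548 to 0.0763, limma-voom).

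Lysosomal and granule members fell by unequal amounts. *Mpeg1*, the pore-forming protein perforin-2, was at 285, 195 and 510 CPM against 54.8, 16.1 and 51.1 CPM (log2 fold change -3.08, SE 0.52, adjusted p = 0.0132, limma-voom). *Laptm5*, a lysosomal membrane protein of blood cells, was at 135, 81.6 and 234 CPM against 24.5, 9.95 and 26.5 CPM (-2.85, SE 0.52, adjusted p = 0.0148, limma-voom). *Cd68*, a lysosomal glycoprotein used as a macrophage marker, was at 49.9, 34.9 and 80.1 CPM against 15.3, 8.39 and 15.7 CPM (-2.01, SE 0.40, adjusted p = 0.0187, limma-voom). These 3 genes had no overlap between the genotypes. The call of *Cd68* was lost without *Nf1fl/fl;DhhCre* replicate 1 (-2.004, adjusted p = 0.0636, limma-voom) and without double-knockout replicate 2 (-1.73, adjusted p = 0.0575, limma-voom). The lysozyme genes *Lyz1* and *Lyz2* showed the smallest called decreases. *Lyz2* was at 207, 226 and 252 CPM against 127, 62.5 and 115 CPM (-1.22, SE 0.26, adjusted p = 0.0208, limma-voom). *Lyz1* was at 22.7, 25.8 and 33.5 CPM against 14.3, 7.07 and 14.7 CPM (-1.22 as well, SE 0.31, adjusted p = 0.0345, limma-voom). They are near-identical neighbours on chromosome 10, and reads of one may have been counted for the other. The call of *Lyz1* was lost whichever library was left out, and that of *Lyz2* without *Nf1fl/fl;DhhCre* replicate 1 or 3 or double-knockout replicate 2, with log2 fold changes of -1.26 to -0.91.

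The identity genes *Pstpip1* and *Aif1* were at a low level. *Pstpip1*, an adaptor of the hematopoietic cytoskeleton, was at 5.55, 2.86 and 6.54 CPM against 1.04, 0.740 and 1.32 CPM (log2 fold change -2.14, SE 0.58, adjusted p = 0.0427, limma-voom). Its call was lost without any library other than *Nf1fl/fl;DhhCre* replicate 2 (-2.34 to -1.85). The paper had chosen *Pstpip1* as a RUNX1/3 target partly because it was lower in these data. Its call, counted among the identity genes called lower, is therefore not separate evidence. *Aif1*, which encodes IBA1, was at 12.3, 4.77 and 21.2 CPM against 4.46, 1.23 and 6.07 CPM, so that the genotypes overlapped. It was not called in limma-voom (-1.64, SE 0.81, adjusted p = 0.195) or edgeR (adjusted p = 0.125) and passed in DESeq2 (adjusted p = 0.0368). Per kilobase of annotated exon, the mean levels in *Nf1fl/fl;DhhCre* ran from 173 CPM for *Lyz2* and 138 CPM for *Itgam* to 5.33 CPM for *Spi1*, 4.83 CPM for *Irf8* and 1.30 CPM for *Pstpip1*. In the double knockout the same scale ran from 77.2 CPM for *Lyz2* to 0.269 CPM for *Pstpip1*.

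Promoters are shown for 3 identity members, *Irf8*, a lineage factor, *Itgax*, the largest decrease in limma-voom though not called, and *Itgam*, which was chosen after its values were seen because its promoter holds both orientations of a searched motif. They are the 250 bases before and 50 after an annotated start, from RefSeq on GRCm38.p6, in the direction of transcription, and capitals mark a match to the RUNX core TGTGGT or the PU.1 core GAGGAAG on either strand.
Irf8 (chr8:120736108-120736407, + strand): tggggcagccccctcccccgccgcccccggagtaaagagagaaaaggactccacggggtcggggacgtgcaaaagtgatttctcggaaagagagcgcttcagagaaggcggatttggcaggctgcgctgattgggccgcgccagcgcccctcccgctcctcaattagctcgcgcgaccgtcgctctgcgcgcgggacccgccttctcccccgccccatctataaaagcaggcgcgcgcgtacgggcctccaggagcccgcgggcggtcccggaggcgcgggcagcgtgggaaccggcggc
Itgax (chr7:128129300-128129599, + strand): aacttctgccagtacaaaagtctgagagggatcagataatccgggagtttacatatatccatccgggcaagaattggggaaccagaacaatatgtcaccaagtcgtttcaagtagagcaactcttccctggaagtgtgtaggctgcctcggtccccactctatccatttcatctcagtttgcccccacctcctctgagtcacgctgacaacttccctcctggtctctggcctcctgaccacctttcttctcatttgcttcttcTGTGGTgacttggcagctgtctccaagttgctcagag
Itgam (chr7:128062390-128062689, + strand): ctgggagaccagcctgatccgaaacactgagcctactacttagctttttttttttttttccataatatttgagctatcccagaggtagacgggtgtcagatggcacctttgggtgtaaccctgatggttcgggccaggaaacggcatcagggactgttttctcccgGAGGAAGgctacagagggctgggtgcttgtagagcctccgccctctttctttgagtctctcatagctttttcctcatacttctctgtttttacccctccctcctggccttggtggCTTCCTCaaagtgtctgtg
The *Irf8* window shown, that of the outer start, held neither motif. The other *Irf8* window (chr8:120738389-120738688), which is not shown, held neither as well. The *Itgax* window held the RUNX core just after the start, and the *Itgam* window held the PU.1 core before the start and its reverse complement after it. The table held 33 promoters of 27 members. The RUNX core lay in 6 of these 33 (18.2%), those of *Cybb*, *Fcer1g*, *Folr2*, *Gpnmb*, *Itgax* and *Lyz2*, and in 16.8% of all 32851 promoters. The PU.1 core lay in 9 (27.3%) against 13.6% of all, in *F13a1*, *Fcgr1*, *Fcgr3*, *Itgam*, *Laptm5*, *Mrc1* and *Trem2*. A match to these letters is a description of the sequence and not evidence of binding.

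Resident genes had the median nearest to 0. *Mrc1*, the mannose receptor CD206 (chr2:14229392-14332057), was the resident member called lower, at 212, 146 and 260 CPM in *Nf1fl/fl;DhhCre* and 72.5, 30.7 and 50.9 CPM in the double knockout. The genotypes did not overlap, and the estimate was -2.05 (SE 0.33, adjusted p = 0.0124, limma-voom). *Siglec1*, the sialoadhesin CD169, was at 49.2, 20.7 and 95.4 CPM against 14.2, 2.71 and 6.67 CPM, also without overlap. Its log2 fold change of -2.82 (SE 0.83) did not pass in limma-voom (adjusted p = 0.0537) and did in edgeR (adjusted p = 0.0358).

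The other 6 tested resident members overlapped between the genotypes, and none was called. *Mertk*, a receptor tyrosine kinase for apoptotic cells, was at 94.7, 142 and 88.1 CPM against 122, 74.3 and 91.7 CPM (log2 fold change -0.17, SE 0.25, adjusted p = 0.658, limma-voom). *Lyve1*, the hyaluronan receptor of perivascular macrophages and lymphatic endothelium, was at 17.8, 31.2 and 24.4 CPM against 23.7, 15.4 and 13.4 CPM (-0.51, SE 0.29). *F13a1*, the coagulation factor XIII A chain, was at 53.8, 39.3 and 50.6 CPM against 55.5, 17.5 and 22.6 CPM (-0.76, SE 0.38). In *F13a1*, double-knockout replicate 1 was the highest of the 6 libraries, and without it the gene was called lower (-1.20, adjusted p = 0.0226, limma-voom).

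*Cd163*, the hemoglobin scavenger receptor, was at 45.2, 31.9 and 17.1 CPM against 38.7, 15.2 and 7.33 CPM (log2 fold change -0.88, SE 0.60). *P2ry12*, a purinergic receptor best known in microglia, was at 22.8, 11.1 and 27.3 CPM against 15.1, 11.3 and 12.4 CPM (-0.55, SE 0.37). In *Cd163* replicate 1 was the highest library of each genotype, and in *P2ry12* replicate 2 was the lowest of each. *Folr2*, the folate receptor beta of resident macrophages, had the smallest change of all tested members in limma-voom, though not in edgeR or DESeq2, where *Gpnmb* and *Mertk* had smaller ones. It was at 4.65, 0.953 and 4.11 CPM against 3.51, 1.32 and 3.63 CPM. The estimate was 0.05 with an SE of 0.72, and its sign turned with another scaling (-0.029 with library size only). *Vsig4*, a complement receptor of resident macrophages, had counts of 7, 1 and 5 against 19, 20 and 2 and was not tested. Its double-knockout replicates 1 and 2 lay above all 3 *Nf1fl/fl;DhhCre* libraries and replicate 3 did not.

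Of the 2 *Folr2* promoters in the table, that of the outer start is shown, since *Folr2* had the smallest change in limma-voom, in the same form as above.
Folr2 (chr7:101857141-101857440, - strand): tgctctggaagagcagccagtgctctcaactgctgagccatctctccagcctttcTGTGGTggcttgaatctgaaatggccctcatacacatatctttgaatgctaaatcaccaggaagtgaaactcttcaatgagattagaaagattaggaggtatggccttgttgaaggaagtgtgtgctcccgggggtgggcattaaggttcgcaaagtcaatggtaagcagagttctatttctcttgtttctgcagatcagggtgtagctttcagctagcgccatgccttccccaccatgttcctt
This window held the RUNX core well before the start, and the other *Folr2* window (chr7:101845282-101845581) held neither motif. In 7 of the 8 tested resident members, double-knockout replicate 1 was the highest library of its genotype, against 3 of 13 identity members. Without that library 1 more resident member was called, *F13a1*, as given above.

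**Figure D2:**
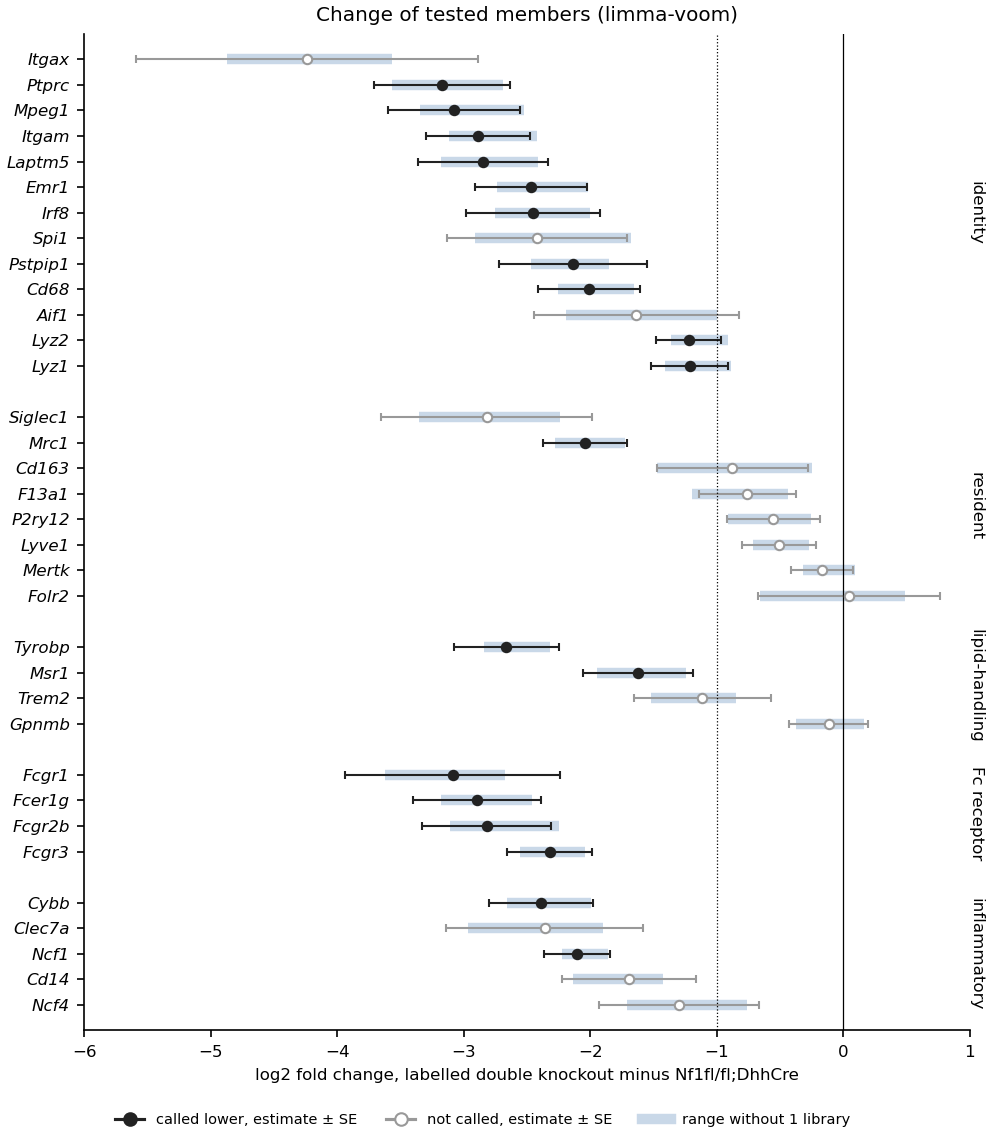
Log2 fold change of the tested members other than 1 that is not reported, labelled double knockout minus *Nf1fl/fl;DhhCre*, from limma-voom, with its standard error, grouped by role. Filled points were called lower and open points were not, the dotted line marks a 2-fold decrease, and the pale bars span the estimates with any 1 library removed. The 4 Fc receptor points all lie below -2.3, and 6 of the 8 resident points lie above the 2-fold line.

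The lipid-handling members split. *Tyrobp*, the signalling adaptor of TREM2 and of many other receptors (chr7:30413760-30417585), was at 38.1, 31.1 and 63.8 CPM against 7.65, 4.44 and 8.19 CPM. It fell by 2.66 on the log2 scale (SE 0.41, adjusted p = 0.0113, limma-voom) and was called whichever library was left out. *Msr1*, the scavenger receptor for modified lipoproteins, was at 34.5, 20.1 and 52.7 CPM against 14.4, 7.73 and 10.9 CPM (log2 fold change -1.62, SE 0.43, adjusted p = 0.0405, limma-voom). The *Msr1* call was lost without any library other than *Nf1fl/fl;DhhCre* replicate 2 (-1.78 to -1.24).

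*Trem2* and *Gpnmb* were not called. *Trem2*, the lipid receptor that signals through TYROBP, was low, at 4.09, 1.79 and 4.43 CPM against 1.12, 1.89 and 1.39 CPM (-1.12, SE 0.54, adjusted p = 0.188, limma-voom). It was called lower without *Nf1fl/fl;DhhCre* replicate 2 (-1.52, adjusted p = 0.0469, limma-voom). *Gpnmb*, a lysosomal glycoprotein of lipid-laden macrophages that other cells also make, was at 55.6, 52.2 and 88.5 CPM against 89.2, 43.1 and 52.5 CPM (-0.12, SE 0.31, adjusted p = 0.824, limma-voom). The highest value of *Gpnmb* came from the double knockout, and its sign turned without *Nf1fl/fl;DhhCre* replicate 3 (0.16) and without double-knockout replicate 2 (0.10).

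All 4 Fc receptor members were called lower, and none overlapped between the genotypes. The *Fcgr* members encode receptors that bind the constant part of antibodies. *Fcer1g*, the shared signalling gamma chain (chr1:171229572-171234365), was at 99.9, 67.4 and 182 CPM against 20.2, 7.65 and 18.2 CPM (log2 fold change -2.90, SE 0.51, adjusted p = 0.0139, limma-voom). *Fcgr3*, an activating low-affinity receptor (chr1:171051174-171064935), was at 16.8, 14.8 and 21.0 CPM against 3.75, 2.22 and 4.56 CPM (-2.32, SE 0.33, adjusted p = 0.0100, limma-voom). *Fcgr2b*, the inhibitory receptor (chr1:170958617-170976547), was at 61.1, 44.7 and 92.1 CPM against 14.9, 3.70 and 11.9 CPM (-2.82, SE 0.51, adjusted p = 0.0148, limma-voom). The activating and the inhibitory low-affinity receptor were thus both lower. They are similar in sequence, and reads could have been split between them. *Fcgr1*, the high-affinity receptor CD64, was at 19.2, 7.57 and 27.2 CPM against 1.35, 3.29 and 1.39 CPM (-3.09, SE 0.85, adjusted p = 0.0435, limma-voom). Here double-knockout replicate 2, the lowest library in the other 3, was the highest of its genotype, and the call was lost without any library other than *Nf1fl/fl;DhhCre* replicate 2 (-3.47 to -2.67).

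Among the inflammatory and effector members, the oxidase subunits *Cybb* and *Ncf1* were called lower and *Ncf4* was not. *Cybb*, the catalytic NADPH oxidase subunit gp91phox (chrX:9435252-9487771), was at 143, 95.3 and 240 CPM against 32.4, 18.1 and 37.2 CPM (log2 fold change -2.39, SE 0.41, adjusted p = 0.0137, limma-voom). *Ncf1*, the organizer subunit p47phox (chr5:134220053-134229625), was at 52.2, 47.5 and 68.9 CPM against 15.6, 8.88 and 14.9 CPM. It had the lowest adjusted p of the members (log2 fold change -2.10, SE 0.26, adjusted p = 0.00846, limma-voom) and was called whichever library was left out. *Ncf4*, the p40phox subunit, was at 4.02, 2.38 and 8.66 CPM against 1.43, 1.48 and 2.31 CPM (-1.30, SE 0.63, adjusted p = 0.190, limma-voom). Its genotypes did not overlap, and it passed in DESeq2 (adjusted p = 0.0347) and not in edgeR (adjusted p = 0.0894).

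*Clec7a* and *Cd14* had no overlap between the genotypes and were not called in limma-voom. *Clec7a* passed in edgeR (adjusted p = 0.0198) and in DESeq2 (adjusted p = 1.03e-05), and *Cd14* in DESeq2 (adjusted p = 0.0336) but not in edgeR (adjusted p = 0.0869). *Clec7a*, the beta-glucan receptor dectin-1, was at 25.7, 7.98 and 33.8 CPM against 4.78, 2.71 and 3.63 CPM (log2 fold change -2.36, SE 0.78, adjusted p = 0.0735, limma-voom). *Cd14*, the lipopolysaccharide co-receptor, was at 2.91, 3.04 and 4.55 CPM against 2.15, 0.658 and 0.792 CPM (-1.70, SE 0.53, adjusted p = 0.0629, limma-voom). In *Clec7a*, *Nf1fl/fl;DhhCre* replicate 2 was far below its fellows, and without it the gene was called (-2.97, adjusted p = 0.00879, limma-voom). *Nos2*, the inducible nitric oxide synthase, had counts of 0, 5 and 3 against 22, 10 and 2 and was not tested.

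The same libraries were high or low across most members. *Nf1fl/fl;DhhCre* replicate 3 was the highest of the 6 libraries in 29 of 35 tested members, and *Nf1fl/fl;DhhCre* replicate 2 the lowest of its genotype in 29. Double-knockout replicate 2 was the lowest of the 6 in 27. The libraries with the lowest values of each genotype were also those with skeletal muscle RNA, whose 15 markers summed to 19400 CPM in *Nf1fl/fl;DhhCre* replicate 2 and 49500 CPM in double-knockout replicate 2, against 97.2 to 585 CPM in the other 4. The part of muscle RNA in the members' values was not tested. Without double-knockout replicate 2, 12 members were called lower, and without *Nf1fl/fl;DhhCre* replicate 1 only 4 were, *Itgam*, *Tyrobp*, *Fcgr3* and *Ncf1*. In the latter fit the 15 members that lost their call still had log2 fold changes of -3.13 to -1.26, with adjusted p = 0.0541 to 0.115 in limma-voom, while the calls over all genes dropped from 2096 to 362. Without double-knockout replicate 3, in which *Runx1* was not reduced, 14 members were called lower.

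Levels were next set relative to *Emr1* in the same library. Since *Emr1* itself fell, most genes are higher on this scale: 88.7% of the other genes tested were higher in every double-knockout library and 0.396% were lower in every one. This is a description without a test, and the choice of *Emr1* was made with the results known. Of the 34 other tested members, 11 were higher, 17 overlapped between the genotypes and 6 were lower. The 11 were 5 of 8 resident genes (*Lyve1*, *F13a1*, *Folr2*, *Mertk* and *P2ry12*), 3 of 4 lipid-handling genes (*Trem2*, *Gpnmb* and *Msr1*) and the identity genes *Cd68*, *Lyz1* and *Lyz2*, which on this scale did what most genes did. For *Mertk*, little changed in CPM, the log2 ratios went from 0.08, 1.48 and -0.26 in *Nf1fl/fl;DhhCre* to 2.69, 3.37 and 2.25 in the double knockout.

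The 17 that overlapped with *Emr1* as the base included all 6 inflammatory genes, for instance *Cybb* with log2 ratios of 0.68, 0.91 and 1.18 against 0.77, 1.33 and 0.95. The 6 that were lower relative to *Emr1* were *Itgax*, *Ptprc*, *Mpeg1*, *Itgam*, *Laptm5* and *Fcer1g*. *Ptprc* went from 1.74, 1.65 and 2.36 to 1.13, 1.34 and 1.21, and *Itgax* from -1.43, -2.10 and -0.60 to -4.14, -2.81 and -2.62. Expression of the resident and lipid-handling genes in cells other than macrophages, such as SCs, neurons, fibroblasts or endothelium, was not tested.

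**Figure D3:**
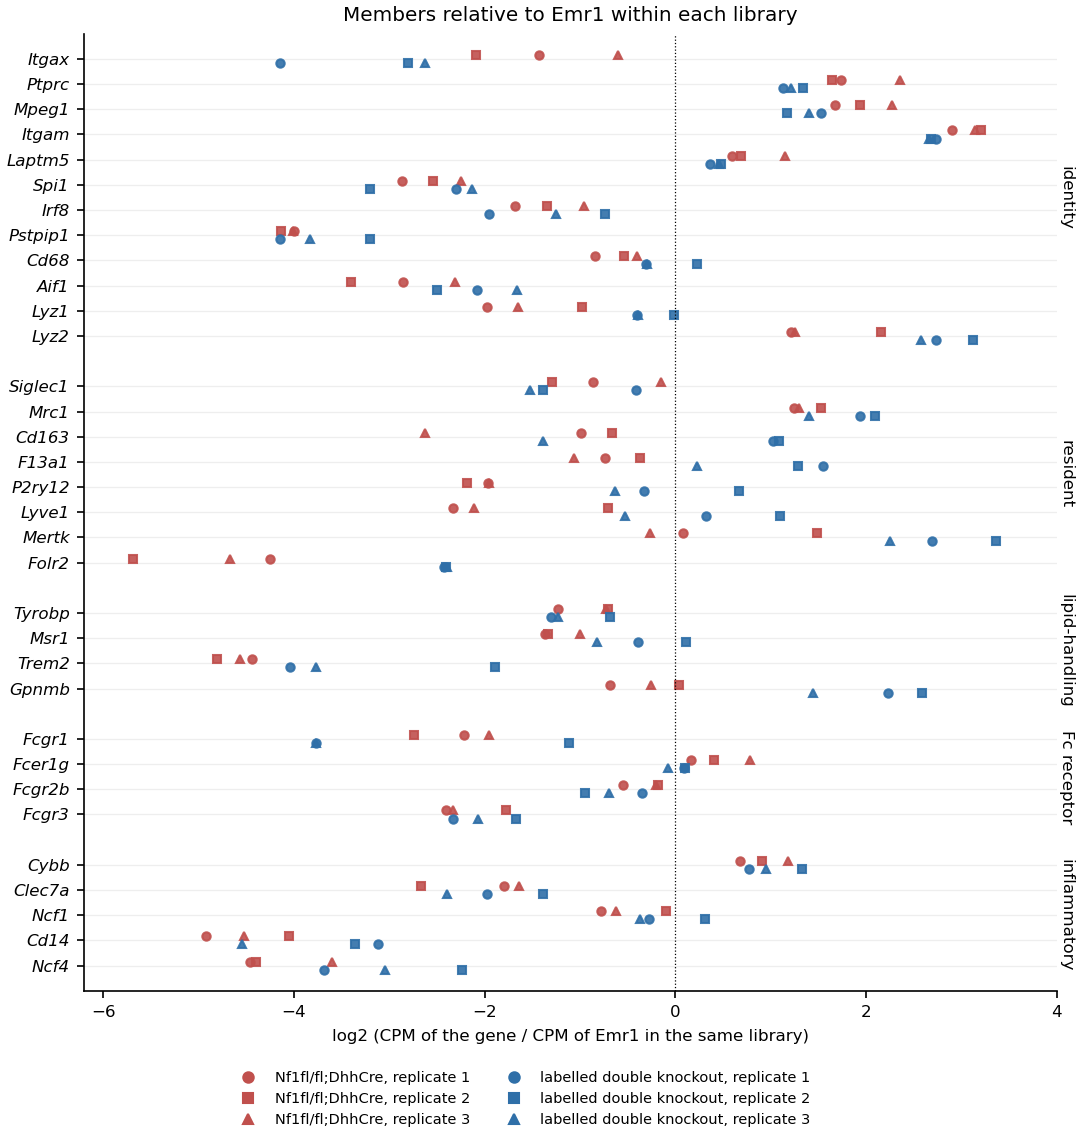
Level of the tested members, other than 1 that is not reported, relative to *Emr1* in the same library, as the log2 ratio of CPM, sorted within each role by the difference between the genotype means. Red points are *Nf1fl/fl;DhhCre* and blue points the libraries labelled double knockout. Resident genes such as *Mertk* and *Folr2* lie farther right in the double knockout, as 88.7% of all other genes tested do, and the inflammatory genes overlap.

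Other genes of these roles were compared in the same fit. Of 19 other macrophage identity genes, 15 were called lower and 0 higher, with a median log2 fold change of -2.27. *Ctss*, the endosomal protease cathepsin S, was at 191, 112 and 364 CPM against 25.6, 7.07 and 22.2 CPM (-3.60, SE 0.62, adjusted p = 0.0134, limma-voom). *Cd53*, a leukocyte tetraspanin, was at 84.1, 54.0 and 127 CPM against 16.1, 6.33 and 15.1 CPM (-2.82, SE 0.47, adjusted p = 0.0127, limma-voom). *Maf*, the most abundant gene of this list by average and a transcription factor that sensory neurons also express, was at 132, 116 and 144 CPM against 195, 201 and 202 CPM, below the 2-fold limit (log2 fold change 0.62). At an unadjusted p under 0.05 the lower genes of this list were 17 and the higher 1, while edgeR and DESeq2 called 0 higher. Without *Nf1fl/fl;DhhCre* replicate 1 the calls of this list dropped to 0, and without double-knockout replicates 1, 2 and 3 to 8, 7 and 10.

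Of 15 tested genes of phagocyte signalling and the oxidase, 14 were called lower and 0 higher (median -1.98), with 15 lower and 0 higher at an unadjusted p under 0.05. These calls dropped to 1 and 6 without *Nf1fl/fl;DhhCre* replicates 1 and 3, and to 4, 2 and 4 without double-knockout replicates 1, 2 and 3. *Cd33*, a sialic acid receptor, was at 163, 72.6 and 202 CPM against 59.1, 20.9 and 40.1 CPM. *Fcgr4*, another activating Fc receptor, was at 5.20, 5.54 and 12.4 CPM and at 0, 0 and 0.396 CPM (adjusted p = 0.0192, limma-voom), below 3 counts in double-knockout replicates 1 and 2. With each of the 6 libraries removed in turn, *Fcgr4* was called in 3 fits. Of 9 tested inflammatory cytokines and enzymes, 4 were called lower and 0 higher (median -1.81), and 2 were without any library other than *Nf1fl/fl;DhhCre* replicate 2. The 4 called with all libraries included *Tgfbi*, a matrix protein that macrophages and fibroblasts secrete, at 568, 398 and 364 CPM against 159, 74.1 and 123 CPM (-1.94, SE 0.29, adjusted p = 0.0108, limma-voom). Another of the 4 was the inflammasome sensor *Nlrp3* (-2.26, adjusted p = 0.0394, limma-voom), called in 1 of the 6 fits with a library removed.

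Resident and lipid-handling genes outside the members had medians nearer to 0. Of 11 other tested resident genes, 3 were called lower and 0 higher (median -0.37). They included the growth factor *Igf1*, at 445, 316 and 354 CPM against 157, 86.1 and 88.0 CPM (-1.80, SE 0.25, adjusted p = 0.00967, limma-voom), and the receptor kinase *Axl*, at 576, 576 and 578 CPM against 290, 163 and 193 CPM (-1.47, SE 0.20, adjusted p = 0.00936, limma-voom). Both are also expressed by fibroblasts. *Sepp1*, selenoprotein P, was at 640, 526 and 666 CPM against 710, 575 and 557 CPM. Of 18 other lipid-handling genes, 0 were called in either direction (median 0.02); DESeq2 and edgeR each called 2 lower and 0 higher, and 5 were lower and 3 higher at an unadjusted p under 0.05. Without double-knockout replicate 3, 3 were called higher, and without *Nf1fl/fl;DhhCre* replicate 3, 1 was. Leaving out *Nf1fl/fl;DhhCre* replicate 2 gave 2 called lower, and leaving out double-knockout replicate 1 gave 1. *Ctsb*, cathepsin B, the most abundant of them by average, was at 838, 725 and 963 CPM against 641, 581 and 617 CPM. Most of these genes are used by many cell types, and a list of 8 adipocyte genes, chosen after the data were seen, summed to 1580 and 2310 CPM in double-knockout replicates 2 and 1 against 38.9 to 455 CPM in the other 4 libraries. Its part in the lipid-handling values was not tested.

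Markers of other leukocytes showed which cells could share members. Of 8 tested dendritic cell markers, 3 were called lower and 0 higher (median -2.22; 1 without any library other than *Nf1fl/fl;DhhCre* replicate 2), led in level by *Clec9a* at 80.5, 117 and 128 CPM against 23.0, 11.4 and 17.8 CPM (-2.66, SE 0.29, adjusted p = 0.00764, limma-voom). Their summed level was 224 to 435 CPM against 52.6 to 86.7 CPM. Dendritic cells also express *Itgax*, *Irf8* and *Ptprc*, and their part in the decrease was not tested. Of 9 tested neutrophil markers, 0 were called (median 0.85), with 2 lower and 0 higher at an unadjusted p under 0.05 and 1 lower in edgeR and in DESeq2, and the summed level of 108 to 242 CPM overlapped that of 85.2 to 171 CPM. Much of that sum was *Cxcr2*, at 50.4 to 56.7 CPM in all 6 libraries. Granule genes were highest in *Nf1fl/fl;DhhCre* replicate 2 and double-knockout replicate 3, such as *S100a9* (46.7 and 28.7 CPM) and *Ngp* (38.4 and 20.2 CPM). Of 8 mast cell markers 0 were called by limma-voom, edgeR or DESeq2, with 1 lower and 1 higher at an unadjusted p under 0.05. Their median was -0.68, and 7 of the 8 log2 fold changes were below 0. Much of their summed level (46.5 to 93.3 CPM against 61.9 to 86.4 CPM) came from *Kit*, the 1 marker above 0. *Kit* was at 39.8, 23.8 and 41.4 CPM against 49.5, 48.4 and 64.2 CPM. The T and NK cell list had a median of -1.77, with 1 of 10 called lower in limma-voom, 3 in edgeR and 4 in DESeq2, and 3 lower and 1 higher at an unadjusted p under 0.05. The called gene, *Klrb1c*, was at 2.98, 1.61 and 1.92 CPM against 0.159, 0.0822 and 0 CPM, below 3 counts in each double-knockout library, and was called in 2 of the 6 fits with a library removed. The sum of this list was held by *Thy1*, which neurons express. B cell markers were low, with 0 of 4 called by limma-voom, edgeR or DESeq2 or at an unadjusted p under 0.05, at 2.91 to 14.2 CPM against 4.22 to 5.43 CPM. Of the 5 tested microglia markers, 3 were called lower, and 1 each without *Nf1fl/fl;DhhCre* replicate 1 and without double-knockout replicate 2. *Tmem119* was at 16.0, 17.0 and 17.6 CPM against 5.18, 1.56 and 1.25 CPM (-2.98, SE 0.45, adjusted p = 0.0108, limma-voom) and was called whichever library was left out, while *Sall3* was at 0 in all 6 libraries.

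**Figure D4:**
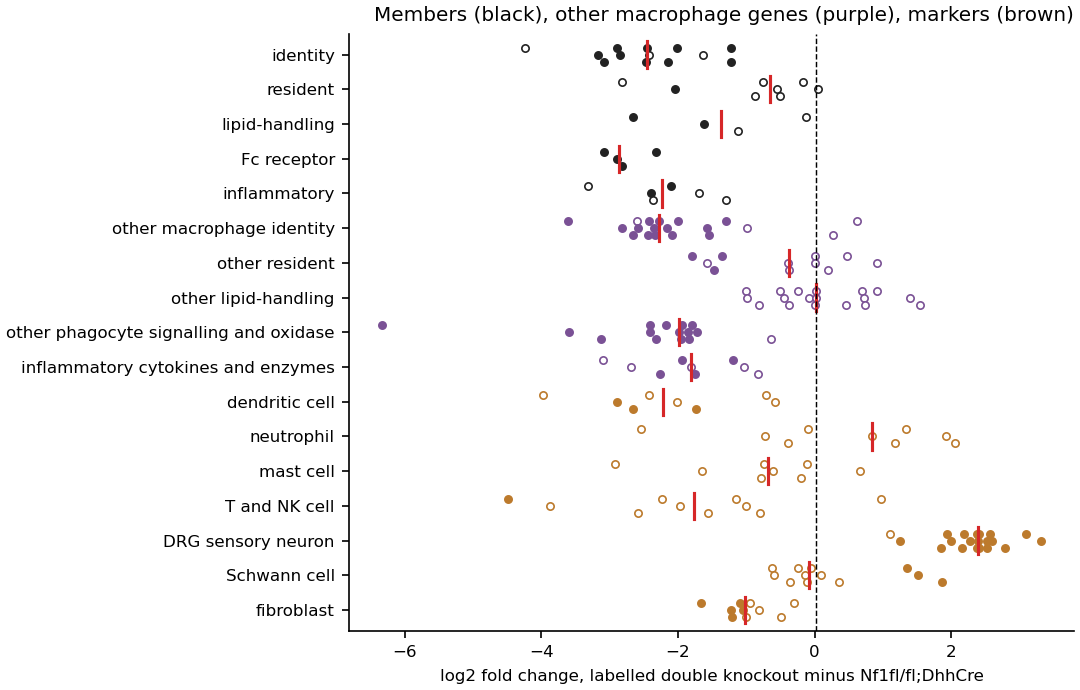
Log2 fold change, labelled double knockout minus *Nf1fl/fl;DhhCre*, of every tested member by role (black), of other macrophage genes (purple) and of cell type markers (brown). Filled points were called in limma-voom and open points were not, red bars are list medians, and the dashed line is the median of 0.02 over all 15652 genes. Macrophage identity, Fc receptor and signalling genes lie near or below -2, resident and lipid-handling genes nearer to 0, and DRG sensory neuron markers above 1.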

How the data were processed

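Counts of reads per gene, deposited by the authors without normalization, were used for 6 mouse RNA-seq libraries, 3 per genotype. Per the labels and the paper's methods, RNA was amplified with a NuGEN Ovation kit, libraries were made with Nextera XT, and reads were aligned to mm10 with TopHat and counted with featureCounts; annotation and strandedness are not given in the sources used here. Amplified reads without molecular identifiers are not independent molecules, and 3 counts correspond to 0.179 to 0.247 CPM, a limit of counting error only.

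Low-count genes were removed by filterByExpr of edgeR (minimum count 10, total 15). TMM-scaled counts went into limma-voom 3.58.1 (edgeR 4.0.16, R 4.3.3), with genotype as the single term; the study names limma-voom with TMM, not the terms. Replicate numbers follow accession order and pair nothing. The libraries are labelled as separate mice. The steps were tested on simulated data. The alternatives tried were DESeq2 1.42.0, the quasi-likelihood test of edgeR, DESeq2 size factors, library size only, other filters, sample quality weights, unadjusted p and leaving out each library. Named were the members and, of each other list, the gene of highest average level and the 2 called genes with the largest change, where a comparison turned on them; 1 member and 1 other gene that meet this rule enter the counts and are not reported here. The members and lists, and the tests, were chosen with earlier results of these data known. Gene spans and exon lengths came from GENCODE M21 on GRCm38. In it, exons of *Itgam* share 68.7% of their length with *Gm49368* on the same strand, those of *Folr2* 63.1% with *Gm10602* and those of *Ncf1* 11.1% with *Gtf2ird2* on the opposite strand, so that reads there are uncertain. Figures were drawn with matplotlib 3.10.9.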

Additional observations from a re-analysis of the deposited data

How the results depend on the processing

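The number of members called lower, 19, was 19 to 27 in the alternatives that used all 6 libraries, lowest with both other filters and DESeq2 size factors and highest with DESeq2 (24 with edgeR, 24 with sample quality weights, 25 with unadjusted p, 21 with library size only). The fits that each left out 1 library gave 4 to 25, lowest without *Nf1fl/fl;DhhCre* replicate 1 and 12 without double-knockout replicate 2. Over those fits, calls over all genes ranged from 362 to 2285 (181 to 1028 lower and 181 to 1304 higher), and the members' median log2 fold change from -2.39 to -1.86. No alternative called a member higher. The sign of *Folr2* turned with edgeR (-0.19), DESeq2 (-0.21), library size only (-0.029) and sample quality weights (-0.43), and over the left-out libraries it ranged from -0.66 to 0.49; *Mertk* ranged from -0.32 to 0.088 and *Gpnmb* from -0.37 to 0.16. The cause was not tested. Of the 35 tested members, DESeq2 added 8 calls, edgeR 5, sample quality weights 5 and library size only 2, and none of these lost one. With 3 libraries per genotype, an exact permutation test of a single value cannot go below p = 0.1, and none was used. No paired analysis was possible because the replicate numbers follow accession order. Members at a few CPM, such as *Folr2*, *Trem2* and *Cd14*, rest on few counts, and a change in them could be missed at this depth.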
